A study of Ovis aries with 32 samples.

Results

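Glucose enters a fat cell through facilitative transporters of the SLC2A family and, once broken down to pyruvate, is either burned in mitochondria or diverted to other uses. SLC2A1 (GLUT1) and SLC2A3 (GLUT3) sit at the cell surface without insulin, whereas SLC2A4 (GLUT4) is the transporter that insulin moves to the surface of fat and muscle cells. The pyruvate dehydrogenase complex turns pyruvate into acetyl-CoA, the kinases PDK1, PDK2, PDK3 and PDK4 switch it off by phosphorylating its E1 alpha subunit (PDHA1), and the phosphatase PDP1 switches it back on. PCK1 is the cytosolic phosphoenolpyruvate carboxykinase, which fat cells use to make glycerol for triglycerides from pyruvate (glyceroneogenesis).

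These 10 genes were picked by name from a deposited RNA-seq table of fetal sheep preadipocytes, as 10 of 21271 listed genes and 18 of 35219 listed transcripts, and their transcripts were summed per gene. RNA came from perirenal preadipocytes of near-term fetuses of Columbia-Rambouillet crossbred ewes carrying singletons, before differentiation and after differentiation to adipocytes. The undifferentiated groups were control male (MC), control female (FC), growth restricted male (MFGR) and growth restricted female (FFGR), and the differentiated counterparts were MCD, FCD, MFGRD and FFGRD, with 4 libraries each and 32 in all. Growth restriction was produced by placental insufficiency in ewes kept at high ambient temperature during mid-gestation, and control ewes were kept at a moderate temperature and pair-fed to the same intake. The labels do not state which libraries come from separate fetuses, so the p-values measure the spread between libraries. The ages of the fetuses beyond near-term and the differentiation medium were not given in the sources used here.

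A value is a transcript count normalized by the authors over all libraries, and a value of 1 read lay between 0.696 and 1.79 in these libraries of approximately 7.78 to 21.3 M reads. Genes were compared in 1 limma fit of all 32 libraries on log2(value + 1), and a gene was called at a Benjamini-Hochberg adjusted p-value below 0.05 over 12737 genes and a more than 1.5-fold difference, with every fold change computed on that log2(value + 1) scale. Values are not corrected for gene length, so levels are compared between groups and not between genes. The summed value of 8 adipocyte markers had a median of 205 (range 64.9 to 1368) in preadipocytes and of 12993 (range 353 to 186967) in differentiated libraries. In 1 of 16 differentiated libraries, FCD replicate 4, this sum of 353 lay inside the preadipocyte range. Of 7 stromal or preadipocyte markers, the collagen genes COL1A1 and COL3A1 were high in both stages, POSTN had a median of 14958 before and 854 after differentiation, and DLK1 was at or near 0 in all libraries. The list did not move in 1 direction. PDGFRB had a lower median after differentiation (2330 and 1161), THY1 a higher one (539 and 1218), and PDGFRA had 10681 and 11532.5. The median sums of other lists also differed between the stages, from 39.5 to 19.8 for 6 endothelial markers (ranges 10.1 to 92.7 and 5.84 to 287), from 164 to 319 for 6 macrophage or leukocyte markers (88.4 to 1038 and 122 to 942) and from 534 to 2375 for the 2 listed proliferation markers TOP2A and CDK1 (103 to 7127 and 547 to 6094). For 4 listed muscle markers, mainly DES, they were 224 and 19.7 (10.2 to 2307 and 0 to 167), and for 2 listed erythroid markers the sum did not exceed 7.20. The macrophage or leukocyte list did not rise as a whole. Medians of CD14 (40.9 and 114) and CD163 (4.03 and 40.8) were higher after differentiation, and that of CD68 (92.2 and 63.2) was lower. PTPRC, CSF1R and AIF1 had medians of at most 1.04. CLDN5 (endothelial) was at 0 in 30 libraries, PTPRC (leukocyte) in 20 and HBB (erythroid) in 31, and the part of all these markers in the results was not tested. The libraries also differed in the slope of their log2 values on the log2 genomic span of the transcripts, from -0.45 to -0.01, and in average-linkage clustering 7 libraries formed a smaller branch (FC replicate 2, FFGR replicates 2 and 3, MFGR replicate 1, and, after differentiation, FFGRD replicate 3, MFGRD replicate 1 and MCD replicate 4). In bulk RNA, fewer cells of a type and less RNA per cell cannot be told apart.

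All 10 genes and 16 of their 18 transcripts passed the filter on low values (at least 10 in at least 4 libraries). Averaged over the 4 groups, differentiation changed 6 of the 10 genes, against 27.2% of all genes tested. Of these, 5 rose, against 12.4% of all genes: PDK4, PDK3 and PDK2, the insulin-regulated transporter SLC2A4, and PCK1. SLC2A4 and PCK1 did not exceed 2.55 and 2.75 in preadipocytes and passed the filter only through differentiated libraries. They could be called only as higher, so these counts are in part fixed by the filter. PDP1, the phosphatase that opposes the kinases, was the 1 gene that fell, against 14.8% of all genes. SLC2A1, SLC2A3, PDK1 and PDHA1 were not called. Thus 3 of the 4 kinases rose, the phosphatase fell, and of the 3 transporters only SLC2A4 passed the test.

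PDK4 is the kinase induced by fasting, glucocorticoids and fatty acids in many tissues. It lies on chromosome 4 at 14711228 to 14723125 (Oar_rambouillet_v1.0) and is listed with 1 transcript. In MC its 4 values were 8.56, 5.06, 57.1 and 7.15, and in MCD they were 297, 1052, 1481 and 808. In FC they were 23.4, 5.10, 27.8 and 34, and in FCD 458, 454, 1182 and 42.3. In each control group the differentiated values were thus all above those of the preadipocytes, with FCD replicate 4 far below the other differentiated libraries. In MFGR the values were 0, 17.3, 0 and 13.7, and in MFGRD 481, 480, 260 and 1775. In FFGR they were 41.8, 0, 1.88 and 41.8, and in FFGRD 2357, 457, 329 and 674.

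Every differentiated library of a group lay above every preadipocyte library of the same group in all 4 groups, and 15 of the 16 differentiated libraries lay above all 16 preadipocyte libraries. The share of all genes that were higher without overlap was 7.65% in MCD against MC, 4.91% in FCD against FC, 5.16% in MFGRD against MFGR and 5.14% in FFGRD against FFGR. Averaged over the groups PDK4 rose by 5.87 on the log2 scale (SE 0.59, limma, adjusted p = 1.4e-08), which is 58.3-fold. PDK4 was at 0 in 3 preadipocyte libraries, and the size of the change moved with the pseudocount. It was 25.3-fold with a pseudocount of 10 and 96.4-fold with 0.1, and it was called with both.

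By group, PDK4 rose by 5.93 in males without growth restriction (SE 1.18, adjusted p = 0.00163), by 7.14 in growth-restricted males (adjusted p = 0.000464) and by 6.36 in growth-restricted females (adjusted p = 0.000844). With 2 of the 4 MFGR libraries at 0, the value in growth-restricted males was 5.19 with a pseudocount of 10 and 8.84 with 0.1, and in growth-restricted females, with 1 FFGR library at 0, it was 4.90 and 7.34. In control females the log2 fold change was 4.03 (95% interval 1.62 to 6.44) and was not called (limma, adjusted p = 0.062). That comparison passed the threshold with the replicate number as a block (adjusted p = 0.0168), and also without FCD replicate 4, where the log2 fold change was 5.00 (adjusted p = 0.0215). Without the 7 libraries on the smaller branch of the clustering tree, the rise in growth-restricted females was 4.40 and no longer called (adjusted p = 0.053).

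The mean log2 level of PDK4 in differentiated cells was highest in MCD (9.61 ± 0.99, SD, n = 4), followed by FFGRD (9.45 ± 1.24), MFGRD (9.16 ± 1.17) and FCD (8.33 ± 2.03). Neighbours in this order differed by less than the spread between the replicates. In preadipocytes the growth-restricted groups had the lower mean log2 levels, 2.02 ± 2.33 in MFGR and 3.09 ± 2.76 in FFGR, against 3.69 ± 1.47 in MC and 4.30 ± 1.15 in FC. The difference between growth-restricted and control preadipocytes, -1.44 (95% interval -3.14 to 0.27), was not called (limma, adjusted p = 0.84). Within the preadipocyte libraries PDK4 moved with the genomic span slope of a library, with r = 0.66 (permutation adjusted p = 0.029) and rho = 0.46 (adjusted p = 0.232) over 16 libraries, and r = 0.80 without the pair farthest from the median. With that slope as a covariate the mean log2 fold change of PDK4 was 5.88.

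**Figure D1:**
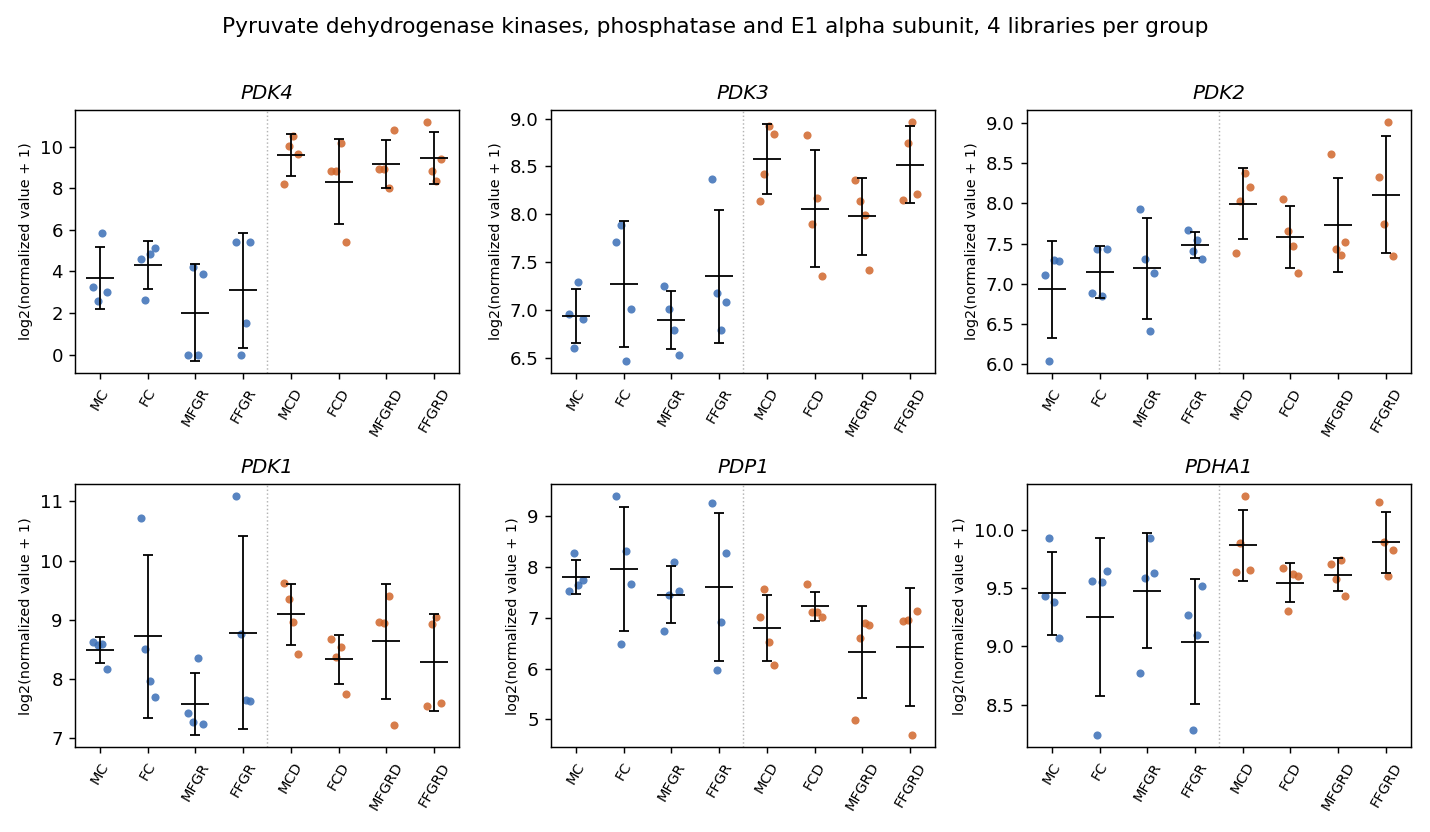
Each point is the log2(normalized value + 1) of 1 library, for PDK4, PDK3, PDK2, PDK1, PDP1 and PDHA1 in the 8 groups, with preadipocytes in blue, differentiated cells in orange, and black bars for the mean and SD (n = 4). PDK4 was separated between the stages in every group, whereas PDK1 and PDP1 overlapped between the stages in all 4 groups.

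PDK3, the kinase with the highest reported activity in vitro, lies on chromosome X at 24016901 to 24094890 and is listed with 3 transcripts. Its values in preadipocytes ran from 87.4 to 329 with a median of 128, and in differentiated cells from 163 to 499 with a median of 291, so that 6 differentiated libraries lay above all preadipocyte libraries. The mean log2 fold change was 1.17 (SE 0.18, limma, adjusted p = 7.9e-06), which is 2.25-fold. In MC the 4 values were 124, 95.8, 156 and 118, and in MCD they were 281, 342, 484 and 455, with no overlap. Here the log2 fold change was 1.64, with the lowest adjusted p of the 4 groups (0.00321).

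PDK3 was also called in FFGRD against FFGR, at 1.16 (adjusted p = 0.032), but the groups overlapped because FFGR replicate 1 had 329. That call was lost without FFGR replicate 2, 3 or 4, without FFGRD replicate 2 or 3 and without the 7 libraries of the smaller branch, where the log2 fold change was 0.65 (adjusted p = 0.43). In MFGRD against MFGR the groups did not overlap and the log2 fold change was 1.08 (adjusted p = 0.073). In FCD against FC it was 0.79 (adjusted p = 0.264). Both of its main transcripts rose on average over the groups, PDK3-201 by 1.58 (adjusted p = 0.000117) and PDK3-202 by 1.05 (adjusted p = 0.000138), where 19.8% of all 19469 transcripts tested were called.

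PDK2 is the kinase found most widely across tissues, and it lies on chromosome 11 at 26765204 to 26780831 with 1 listed transcript. Its values ran from 64.6 to 242 in preadipocytes (median 156) and from 140 to 516 in differentiated cells (median 207). Averaged over the groups it rose by 0.67 (SE 0.18, limma, adjusted p = 0.00564), which is 1.59-fold and close to the 1.5-fold limit. With libraries weighted by quality the change was 0.55 and fell under that limit. In no single group was it called, and its log2 fold change was 1.07 in males without growth restriction (adjusted p = 0.07), where the 4 values of 137, 64.6, 156 and 154 in MC lay below the 165, 261, 332 and 294 in MCD. With the replicate number as a block that comparison was called (adjusted p = 0.0284). Among differentiated libraries PDK2 moved against the genomic span slope (r = -0.69, permutation adjusted p = 0.0211, rho = -0.52, adjusted p = 0.163), with r = -0.36 without the pair farthest from the median.

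PDK1, the kinase best known as a target of the hypoxia factor HIF1A, lies on chromosome 2 at 148064429 to 148131377 with 3 listed transcripts. It gave no call, with a mean log2 fold change of 0.19 (95% interval -0.45 to 0.84, limma, adjusted p = 0.695). In FC its values were 1690, 363, 248 and 205, and in FFGR 2174, 432, 200 and 197. Replicate 1 of each of these groups stood above every other library of the series, whose highest value was 787. Without those 2 libraries the mean log2 fold change was 0.55 (limma, adjusted p = 0.057). That setting was chosen after the data were seen, and leaving out the highest preadipocyte values raises the change by construction. Its p-value is therefore no test of a rise.

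PDP1, the phosphatase, lies on chromosome 9 at 91530036 to 91535548 with 1 listed transcript. Its values ran from 61.4 to 675 in preadipocytes (median 202) and from 24.7 to 201 in differentiated cells (median 122), so no differentiated library reached the preadipocyte median. The mean log2 fold change fell by 1.01 (SE 0.31, limma, adjusted p = 0.013). The log2 fold changes of the 4 groups lay between -0.74 and -1.18, and none was called on its own. Without FC replicate 1 and FFGR replicate 1, the libraries with the highest PDP1, the mean change was -0.76 (adjusted p = 0.0413), with -0.27 in FCD against FC and -0.63 in FFGRD against FFGR. That setting was chosen after the data were seen, and it makes the fall smaller by construction. PDP1 followed the genomic span slope among the preadipocyte libraries (r = 0.78, permutation adjusted p = 0.00137, rho = 0.62, adjusted p = 0.067, and r = 0.76 without the pair farthest from the median). With the slope as a covariate the mean change was -1.0 (adjusted p = 0.000104).

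PDHA1, the subunit that the kinases and the phosphatase act on, lies on chromosome X at 18468022 to 18488252 with 2 listed transcripts. It ran from 300 to 975 in preadipocytes (median 710) and from 629 to 1249 in differentiated cells (median 809). Its mean log2 fold change of 0.42 (SE 0.15) had an adjusted p of 0.0278 in limma but stayed under 1.5-fold. Without the 7 libraries of the smaller branch it was 0.23 (adjusted p = 0.093). Among preadipocyte libraries PDHA1 moved with the genomic span slope (r = 0.92, permutation adjusted p = 0.000375, rho = 0.73, adjusted p = 0.0146, and r = 0.82 without the pair farthest from the median), and its 2 lowest values, 300 in FC replicate 2 and 310 in FFGR replicate 2, were both in the smaller branch. The slope itself had medians of -0.06 in preadipocytes and -0.07 in differentiated libraries.

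**Figure D2:**
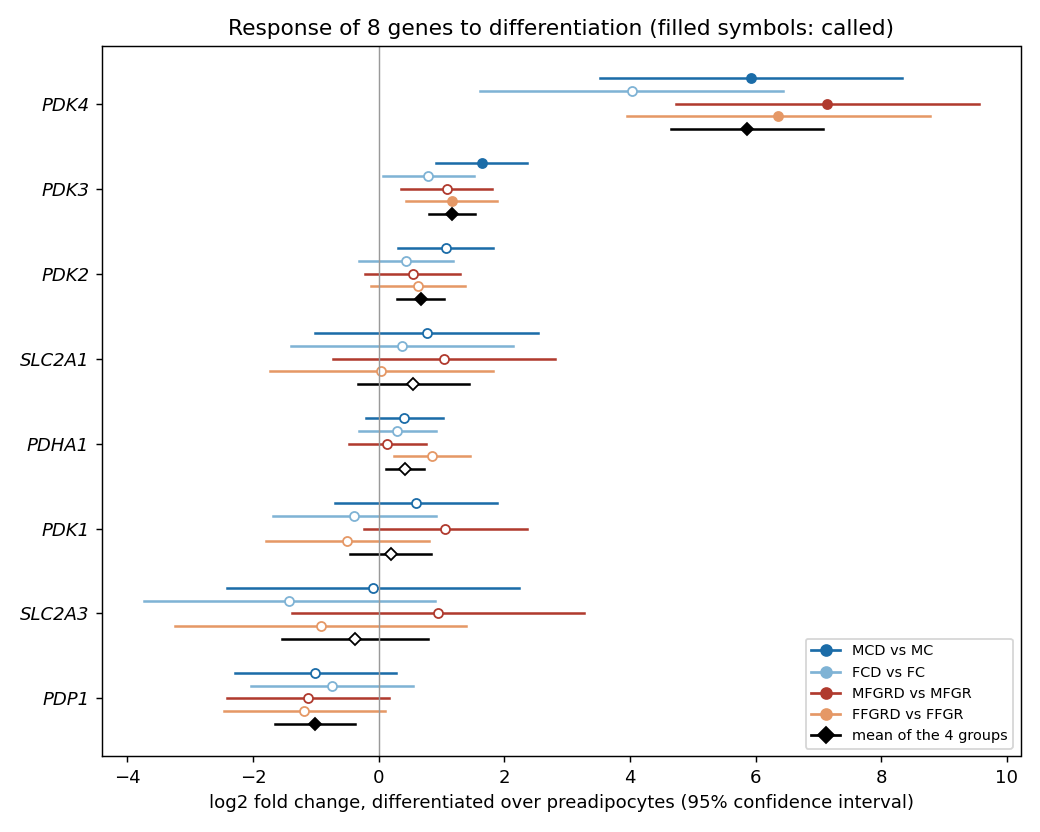
Points are log2 fold changes of differentiated cells over preadipocytes from the limma fit of 32 libraries, with bars for the 95% confidence interval, for 8 genes in the 4 groups (circles) and for their mean (diamonds), and filled symbols mark called values. The PDK4 interval of the mean ran from 4.66 to 7.07, whereas that of PDP1 lay below 0 and those of SLC2A1, SLC2A3 and PDK1 included 0.

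Of 8 further genes for pyruvate entry and the dehydrogenase complex, 1 rose and none fell on average over the groups, where 12.4% of all genes rose and 14.8% fell, so the share that rose was near that of all genes. This was PDHX, the component that anchors the E3 subunit, with a log2 fold change of 0.65 (limma, adjusted p = 0.00064). PDHB, the E1 beta subunit, had 0.23, DLAT, the E2 core, 0.28, and DLD, the E3 subunit, 0.11, none of which was called. The median log2 fold change over the 8 genes was 0.20, beside 0.03 over all genes tested. The second phosphatase, PDP2, had a log2 fold change of -0.42 that was not called (adjusted p = 0.143).

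SLC2A4 (chromosome 11, 36364136 to 36368808, 1 listed transcript) was close to undetected before differentiation. It was listed at 0 in 11 of 16 preadipocyte libraries and did not exceed 2.55, approximately 2 reads. In MCD the values were 2.23, 11.7, 32.3 and 47.6, and in FFGRD they were 65.2, 3.91, 85.8 and 0.75. In MFGRD replicate 1 had 61.3 and the others 1.67, 3.10 and 0, and in FCD the values were 6.07, 4.8, 6.43 and 0. High values were therefore found in a few libraries of 3 of the groups and in none of FCD, whose highest value was 6.43.

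SLC2A4 was called on average over the groups (limma, adjusted p = 0.000405), in MCD against MC (adjusted p = 0.0406) and in FFGRD against FFGR (adjusted p = 0.0227). The lowest MCD library (replicate 1) and the highest MC library (replicate 3) both had approximately 1.99 reads, and FFGRD replicate 4 had 1 read against 0 in FFGR, so these groups were not separated beyond the floor of 3 reads used next. With every preadipocyte library set at 3 reads, the rise that remained was 3.58-fold in MCD, 3.83-fold in FFGRD and 2.03-fold over all groups. In MFGRD it was 1.28-fold and in FCD 0.98-fold, so no rise remained in FCD. SLC2A4 exceeded 3 reads in 11 of 16 differentiated libraries. These bounds are taken on the log2(value + 1) scale and hold no sampling error. A fitted fold change of so low a gene depends on the pseudocount and is not given. The call in MCD was lost without MC replicate 1, 2 or 4 and without MCD replicate 2, 3 or 4 (adjusted p from 0.0707 to 0.147). That in FFGRD was lost without FFGR replicate 2 or FFGRD replicate 1 or 3 (adjusted p from 0.0522 to 0.106). The adjusted p of the response averaged over the groups stayed at or below 0.00405 under every alternative in which the gene was tested. SLC2A4 was not tested with a filter of 20 CPM or without the 7 libraries of the smaller branch. That branch holds MCD replicate 4 (47.6), MFGRD replicate 1 (61.3) and FFGRD replicate 3 (85.8). Among differentiated libraries SLC2A4 moved against the genomic span slope (r = -0.62, permutation adjusted p = 0.0447, rho = -0.44, adjusted p = 0.261).

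PCK1 (chromosome 13, 60936460 to 60941847, 1 listed transcript) was likewise close to undetected before differentiation. It was at 0 in 13 of 16 preadipocyte libraries, all of MC included, with a highest value of 2.75 in FC replicate 1. In MCD it had 3.35, 2.93, 42.2 and 12.8, in FCD 7.57, 1.93, 8.59 and 0.70, in MFGRD 10.8, 5.86, 2.32 and 0, and in FFGRD 15.8, 2.33, 21.1 and 2.24. These are low values, with a median of approximately 4.5 reads in differentiated libraries and at most 50.1.

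PCK1 was called on average (limma, adjusted p = 5.64e-05), in MCD against MC (adjusted p = 0.00946) and in FFGRD against FFGR (adjusted p = 0.0375). With preadipocyte libraries at 3 reads the rise that remained was 2.24-fold in MCD, 2.04-fold in FFGRD and 1.49-fold over all groups. In FCD and MFGRD it was 1.06-fold and 1.01-fold, so hardly any rise remained there. PCK1 exceeded 3 reads in 9 of 16 differentiated libraries. Without MCD replicate 3 the call in MCD was lost (adjusted p = 0.0634), and that in FFGRD was lost without FFGR replicate 2, 3 or 4 or FFGRD replicate 1 or 3 (adjusted p from 0.0686 to 0.134).

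SLC2A1 (chromosome 1, 17962410 to 17989966, 2 listed transcripts) was well expressed in both stages. Its values ran from 182 to 4796 in preadipocytes (median 425) and from 250 to 4688 in differentiated cells (median 885), and 14 of the 16 differentiated libraries lay above the preadipocyte median. The mean log2 fold change was 0.55 (95% interval -0.33 to 1.44) and was not called (limma, adjusted p = 0.363). SLC2A3 (chromosome 3, 222584545 to 222664996, 3 listed transcripts) had medians of 1628 and 1929 and a mean log2 fold change of -0.37 (95% interval -1.53 to 0.79, adjusted p = 0.672).

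**Figure D3:**
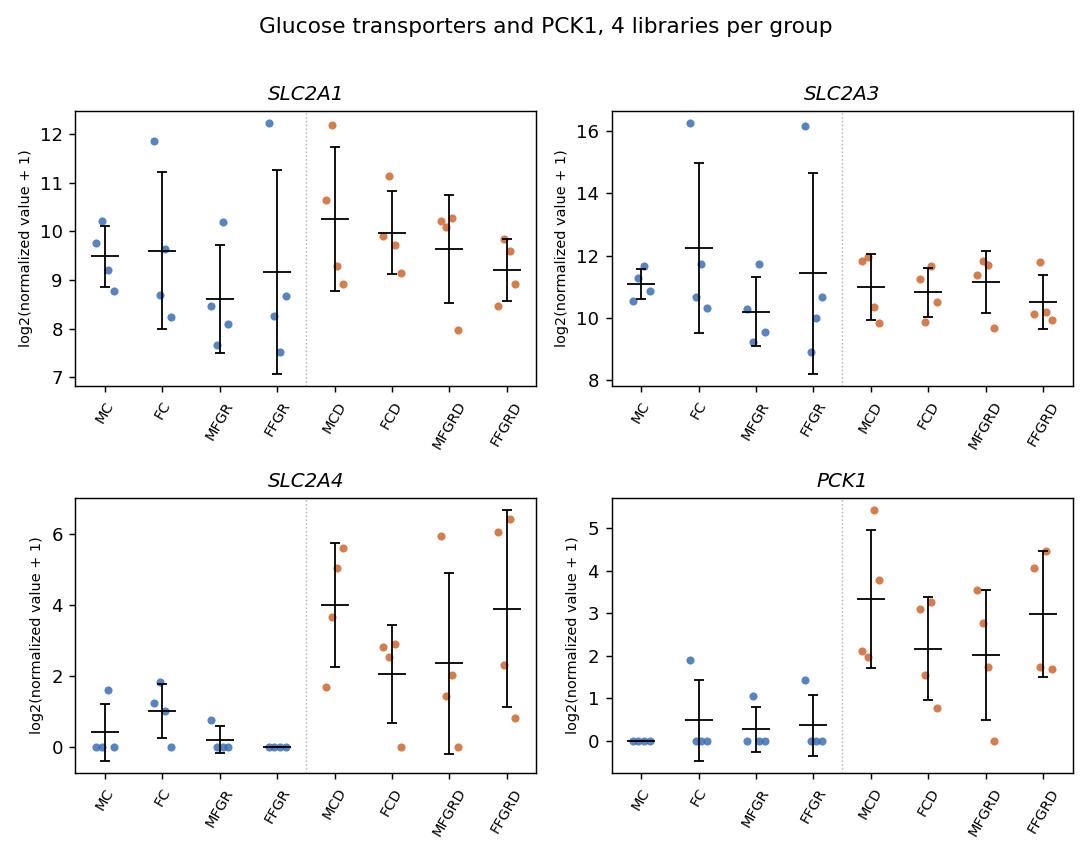
Each point is the log2(normalized value + 1) of 1 library, for SLC2A1, SLC2A3, SLC2A4 and PCK1 in the 8 groups, coloured by stage, with black bars for the mean and SD (n = 4). SLC2A4 and PCK1 lay at or near 0 in preadipocytes, and for SLC2A3 replicate 1 of FC (78278) and of FFGR (73271) stood far above all others.

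SLC2A3 stood far above all other libraries in 2 preadipocyte libraries. In FC the values of SLC2A3 were 78278, 1632, 3368 and 1283, and in FFGR they were 73271, 482, 1019 and 1624. In FC replicate 1 and FFGR replicate 1 SLC2A3 ranked 13 and 11 among all genes and held 0.544% and 0.562% of the summed values, and in the other 14 preadipocyte libraries its highest value was 3395. SLC2A1 was also highest among preadipocytes in these libraries, at 3722 and 4796, against 182 to 1189 in the other 14, but MCD replicate 2 reached 4688 after differentiation.

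The same libraries were highest for PDK1 and for PDP1, which had 675 and 615 there and at most 319 in the other 14. Of the 10 genes, 5 (SLC2A1, SLC2A3, PDK1, PDP1 and, at 1.70 to 2.75, PCK1) lay above those 14 libraries in both, against 8.99% of all genes tested. These libraries were singled out by their values of SLC2A3, itself a member. The count of members is therefore in part fixed by that choice, and PCK1 enters it on approximately 2 reads. Glycolysis genes were high there too, 7 of 17 by the same measure. HK2, the hexokinase of insulin-sensitive tissues, had 4309 and 3964 against 46.0 to 1253, and PFKFB3, which drives phosphofructokinase, had 1227 and 958 against 43.9 to 316. The part of the glycolysis genes in these values was not tested. Without these libraries SLC2A1 rose with differentiation by 1.00 on average (limma, adjusted p = 0.0242), and SLC2A3 had 0.36 (adjusted p = 0.421). This setting was chosen after the data were seen. Leaving out the highest preadipocyte values of both genes raises their changes by construction, so these p-values are no test of a rise.

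The values of SLC2A3 were split between its transcripts unevenly. SLC2A3-201 carried 97.4% of the gene's summed values over the 32 libraries, but in FFGR replicate 2 it was listed at 0 while SLC2A3-202 had 440. SLC2A3-203 was listed at 0 in all of FFGRD, against 879, 41.6, 340 and 37.0 in FFGR, and it was called there (limma, adjusted p = 0.036). The gene sum was not called in that comparison (log2 fold change -0.92, adjusted p = 0.67).

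SLC2A1, SLC2A3 and PDK1 varied together between libraries. Over the 14 preadipocyte libraries other than FC and FFGR replicate 1, SLC2A1 and SLC2A3 had r = 0.79 (permutation adjusted p = 0.00552) and rho = 0.83 (adjusted p = 0.00559). SLC2A1 and PDK1 had r = 0.63 (adjusted p = 0.04) and rho = 0.62 (adjusted p = 0.055) there. SLC2A3 and PDK1 had r = 0.38 (adjusted p = 0.188) and rho = 0.35 (adjusted p = 0.313) there. These values were adjusted over 13 relations within subsets of the libraries, and those subsets were chosen after the values were seen.

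Over the 16 differentiated libraries, SLC2A1 and PDK1 had r = 0.74 (permutation adjusted p = 0.00837) and rho = 0.72 (adjusted p = 0.0203), with r = 0.65 without the pair farthest from the median. SLC2A1 and SLC2A3 had r = 0.63 (adjusted p = 0.0324) and rho = 0.70 (adjusted p = 0.0258), which went to r = 0.48 without MCD replicate 2 and MFGRD replicate 4. SLC2A3 and PDK1 had r = 0.73 (adjusted p = 0.0111) and rho = 0.74 (adjusted p = 0.0146), with r = 0.65 without the same pair of libraries. PDK1 also followed the mean log2 level of 17 glycolysis genes, with r = 0.84 (adjusted p = 0.00123) and rho = 0.75 (adjusted p = 0.0146), and r = 0.76 without the pair farthest from the median. These were adjusted over 150 relations, of which 75 were within each stage.

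**Figure D4:**
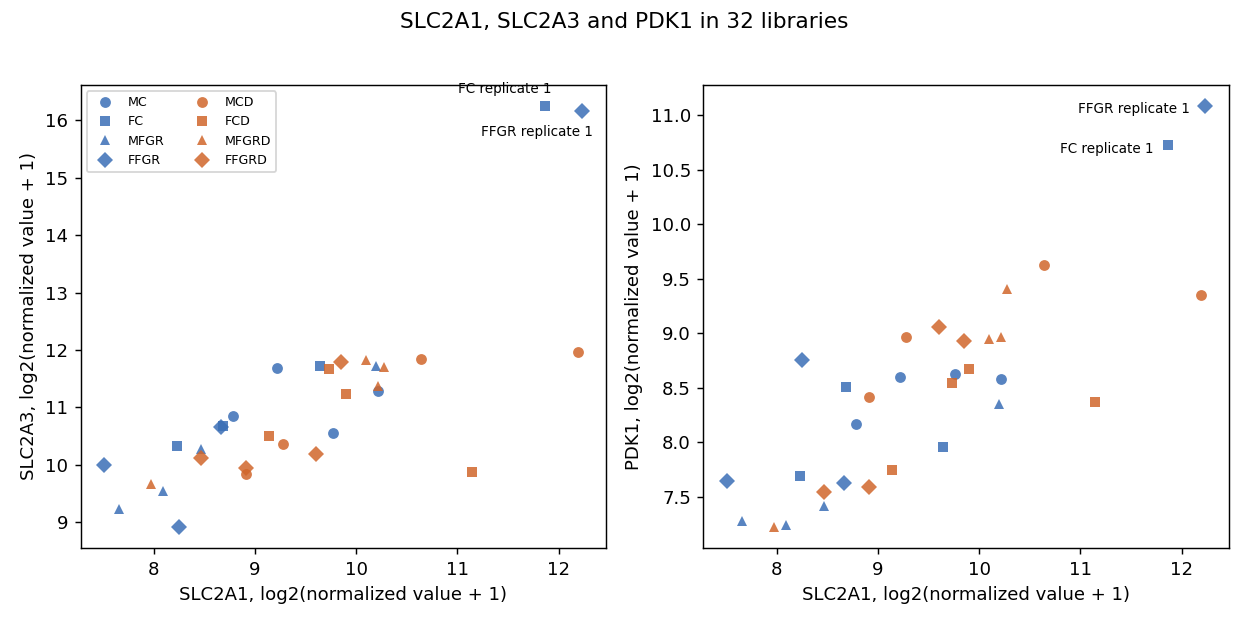
Each point is 1 of 32 libraries, with log2(normalized value + 1) of SLC2A1 on the horizontal axis and of SLC2A3 (left) or PDK1 (right) on the vertical axis, preadipocytes in blue, differentiated cells in orange and a marker shape for each sex and growth group. FC replicate 1 and FFGR replicate 1 stand apart at the top right of both panels.

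SLC2A4, PCK1, PDK2 and PDK3 followed the adipocyte markers over the 16 differentiated libraries, and PDK4 was not shown to. With the mean log2 level of 8 markers (ADIPOQ, FABP4, PLIN1, PLIN4, LIPE, CEBPA, PPARG and DGAT2), SLC2A4 had r = 0.93 (permutation adjusted p = 0.000375) and rho = 0.95 (adjusted p = 0.0005), PDK2 had r = 0.84 (adjusted p = 0.00123) and rho = 0.90 (adjusted p = 0.0005), and PCK1 had r = 0.82 (adjusted p = 0.00123) and rho = 0.89 (adjusted p = 0.00075). PDK3 had r = 0.75 (adjusted p = 0.00658) and rho = 0.80 (adjusted p = 0.00731). Without the pair of libraries farthest from the median of the gene, r was 0.92 for SLC2A4, 0.84 for PDK2, 0.82 for PCK1 and 0.59 for PDK3. PDK4 had r = 0.56 (adjusted p = 0.0773) and rho = 0.31 (adjusted p = 0.421), and r = 0.07 without FCD replicate 4 and FFGRD replicate 1. Among preadipocyte libraries PDK2 also followed the markers (r = 0.68, adjusted p = 0.026, rho = 0.76, adjusted p = 0.0146, and r = 0.63 without the farthest pair).

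The marker mean left a gap between 6 differentiated libraries at 11.2 to 11.8 and 10 at 4.06 to 9.82. Over those 10 libraries SLC2A4 followed the markers with r = 0.87 (permutation adjusted p = 0.00286) and rho = 0.89 (adjusted p = 0.00825), and PCK1 with r = 0.73 (adjusted p = 0.04) and rho = 0.81 (adjusted p = 0.0322). PDK3 had r = 0.72 (adjusted p = 0.04) and rho = 0.71 (adjusted p = 0.059), and PDK2 had r = 0.57 (adjusted p = 0.147) and rho = 0.64 (adjusted p = 0.102). PDK4 had r = 0.58 (adjusted p = 0.147) and rho = 0.16 (adjusted p = 0.654).

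Within the 6 libraries with the most marker RNA, PDK2 had r = 0.91 (permutation adjusted p = 0.04) and rho = 0.94 (adjusted p = 0.051), while PDK4 had r = -0.66 (adjusted p = 0.183) and rho = -0.71 (adjusted p = 0.223). SLC2A4 had r = 0.78 (adjusted p = 0.123) and rho = 0.60 (adjusted p = 0.313) there. In MFGRD replicate 4 PDK4 was at 1775, the second highest of the series, while ADIPOQ (adiponectin, a secreted adipocyte product) was at 146 and SLC2A4 and PCK1 were at 0. In FFGRD replicate 3 ADIPOQ was at 8954 and SLC2A4 at 85.8, its highest, while PDK4 was at 329. In FCD replicate 4, with ADIPOQ at 8.59, all 3 were low, with PDK4 at 42.3, SLC2A4 at 0 and PCK1 at 0.70. The difference between the correlations was not tested.

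**Figure D5:**
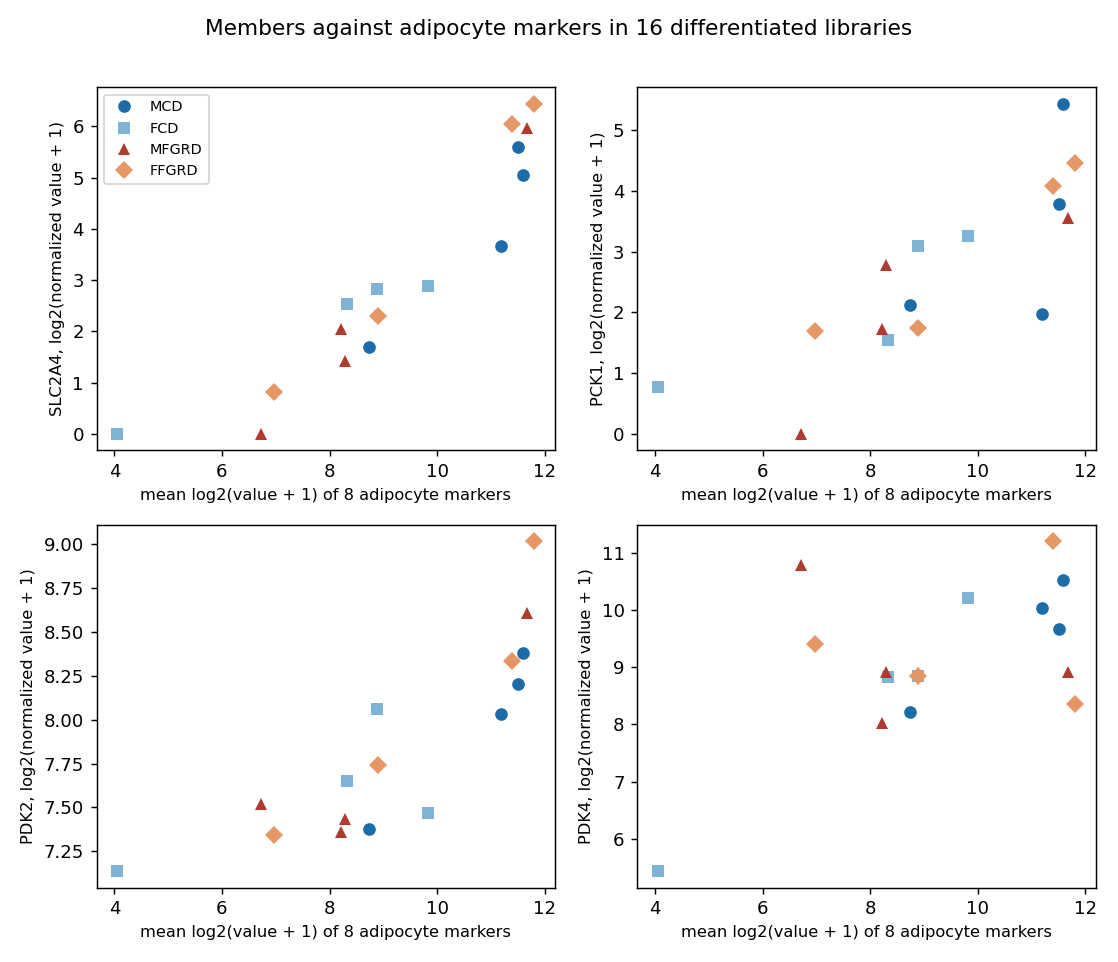
Each point is 1 of 16 differentiated libraries, with the mean log2(value + 1) of 8 adipocyte markers on the horizontal axis and log2(normalized value + 1) of SLC2A4, PCK1, PDK2 or PDK4 on the vertical axis, and a colour and shape for each group. SLC2A4, PCK1 and PDK2 climb with the markers, and PDK4 reaches 1775 and 674 at low marker levels.

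Genes whose log2 levels were most like those of each of 4 members over the 32 libraries are given next, and the r over both stages includes the shift between them. For PDK4 they were NPR3, a natriuretic peptide clearance receptor (r = 0.91), S1PR5, a sphingosine phosphate receptor (r = 0.90), the clock gene PER1 (r = 0.90), PAQR3 (r = 0.90) and the Wnt receptor FZD4 (r = 0.90). Within the differentiated libraries these r were 0.31 to 0.70. For SLC2A4 they were BTC, an EGF receptor ligand, and CITED1 (both r = 0.93), ADPR2, ETFDH, a mitochondrial electron transfer enzyme, and ELOVL3, a fatty acid elongase (each r = 0.92), with r of 0.93 to 0.96 within the differentiated libraries.

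For PCK1 the closest genes were HIF3A (r = 0.91), TRARG1, a regulator of GLUT4 traffic (r = 0.91), ACSL1, an acyl-CoA synthetase (r = 0.90), ATP12A (r = 0.90) and PPP1R1B (r = 0.89). The r of PCK1 with them was 0.78 to 0.87 within differentiated libraries. Within preadipocytes, where PCK1 was at 0 in 13 of 16 libraries, it was -0.12 to 0.90. For SLC2A1 they were the lactate exporter SLC16A3 (r = 0.85), CSPG5 (r = 0.85), ELL2 (r = 0.84), PDK1 (r = 0.83) and GYS1, muscle glycogen synthase (r = 0.82). The r of SLC2A1 with these 5 genes was 0.84 to 0.91 within preadipocytes, where it includes FC and FFGR replicate 1, and 0.70 to 0.82 within differentiated cells. Nothing was tested from these likenesses.

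Genes around the members were taken from lists by function. In glyceroneogenesis and gluconeogenesis, 4 of 8 tested genes rose and 1 fell on average over the groups, against 12.4% and 14.8% of all genes. GPD1, which makes glycerol 3-phosphate, went from a median of 52.9 to 407 (log2 fold change 3.74, limma, adjusted p = 3.14e-06), and AQP3, a glycerol channel, from 0 to 11.1 (adjusted p = 6.03e-05). FBP1 also rose (adjusted p = 0.0492), from a median of 0.96 to 3.33, and G6PC3 by 0.77 (adjusted p = 0.013), whereas FBP2, the muscle form of fructose bisphosphatase, fell by 2.11 (adjusted p = 0.000304). The median log2 fold change over the 8 genes was 0.74. AQP3 and FBP1, with means of 0.12 and 1.61 in preadipocytes, passed the filter only through differentiated libraries. The count of 4 is therefore in part fixed by the filter.

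In glycolysis 5 of 17 tested genes rose and 1 fell, against 12.4% and 14.8% of all genes, with a median of 0.37. The genes that rose most were PFKFB3 (2.14, adjusted p = 0.000186), PFKFB4 (1.77, adjusted p = 2.77e-06), ALDOC (1.51, adjusted p = 0.0131) and HK3 (1.22, adjusted p = 0.00293), the last at a median of only 10.2 after differentiation, and ENO2 fell by 1.63 (adjusted p = 0.00133). PFKFB3 and PFKFB4 make the compound that activates phosphofructokinase. HK2 had 0.68 and was not called (adjusted p = 0.399). The low genes HK3 (mean 4.61 in preadipocytes) and ENO2 (mean 4.07 after differentiation) passed the filter mainly through the stage where each was higher. The counts of 5 and 1 are therefore in part fixed by the filter.

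Of the 7 other facilitative transporters tested, none rose (against 12.4% of all genes) and SLC2A6, a transporter of intracellular membranes, fell (against 14.8%), by 1.54 (limma, adjusted p = 0.0316) from a median of 6.10 to 0.82. SLC2A6 was a low gene, with means of 14.9 (SD 25.6) before and 3.53 (SD 6.46) after differentiation. Its passing the filter rests on a minority of libraries, so this fall may be in part fixed by the filter. Among 12 genes for the insulin-regulated traffic of GLUT4, 1 rose and 4 fell, against 12.4% and 14.8% of all genes, with a median of -0.39. SNAP23, a fusion protein of the plasma membrane, rose by 0.81 (adjusted p = 0.000197). SORT1, a sorting receptor of GLUT4 vesicles, fell by 1.19 (adjusted p = 5.45e-06), MYO1C, a motor, by 1.13 (adjusted p = 2.06e-07), EXOC7, an exocyst subunit, by 0.96 (adjusted p = 0.000163), and STXBP3 by 0.73 (adjusted p = 5.05e-06). These genes act in general vesicle traffic as well.

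Of 17 genes whose products are known to act on PDK4 or PCK1 or with their regulators, 7 rose and none fell, against 12.4% and 14.8% of all genes, with a median of 0.56. CEBPA rose by 4.02 (limma, adjusted p = 1.18e-07), PPARG by 2.26 (adjusted p = 0.000526), FOXO1 by 2.25 (adjusted p = 1.01e-05) and KLF15 by 2.0 (adjusted p = 0.000131), and the other 3 were TXNIP, PPARGC1A and HIF1A. CEBPA and PPARG are the adipogenic factors and also belong to the adipocyte markers above. NR3C1, the glucocorticoid receptor, had -0.26 and was not called (adjusted p = 0.699).

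By group, 4 of the 10 members were called in MCD against MC (PDK4, PDK3, SLC2A4 and PCK1, against 8.35% of all genes), 0 in FCD against FC (against 2.52%), 1 in MFGRD against MFGR (PDK4, against 5.13%) and 4 in FFGRD against FFGR (PDK4, PDK3, SLC2A4 and PCK1, against 10.3%). SLC2A4 and PCK1, which passed the filter only through differentiated libraries, could not be called as lower in any group. In FCD against FC, 3 members had an unadjusted limma p below 0.05, against 15.5% of all genes. In a fit of only the 8 libraries of a comparison, 2 members were called in MCD and 1 in FFGRD.

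A call in some groups and not in others is not a difference between them, and the difference itself gave no call. The response to differentiation differed between growth-restricted and control cells for 0 of the 10 members, and for 0 between males and females, with 0 at an unadjusted limma p below 0.05 in either test and 0% of all genes called. For PDK4 the response was 1.77 larger on the log2 scale in growth-restricted cells (95% interval -0.64 to 4.18) and 1.34 larger in males (95% interval -1.07 to 3.75), intervals that leave room for differences of several fold. The lowest unadjusted p was that of PDK1 between the sexes (0.054, with a response 1.27 larger in males, 95% interval -0.02 to 2.57, adjusted p = 0.912).

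Growth restriction and sex likewise gave 0 calls among the 10 members at either stage, with 0 at an unadjusted limma p below 0.05 in the pooled and in the single comparisons, and 0% of all genes were called. In differentiated cells the difference between growth-restricted and control cells was 0.33 for PDK4 (95% interval -1.37 to 2.04), -0.07 for PDK3 (-0.58 to 0.44) and -0.69 for SLC2A1 (-1.94 to 0.56). The differences between males and females in differentiated cells lay between -0.26 for PDP1 and 0.56 for PDK1.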

How the data were processed

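RNA-seq libraries of 32 cultures in 8 groups were grouped by the deposited labels, and no library was regrouped by a measured value. The authors discarded reads of low Phred quality, assigned the rest to Ensembl transcripts of the Oar_rambouillet_v1.0 build by Salmon and scaled the counts with DESeq2, and the deposited signal per transcript and library is the result. The deposited values are not whole reads, so limma (3.58.1, R 4.3.3) with an empirical Bayes trend was used on log2(value + 1) of gene sums. The group means and the authors' fold change, p-value and adjusted p-value columns of the same table were not used. The submitters' processing notes name FastQC 0.11.9, Salmon and DESeq2.

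The members, the gene lists and the tests were chosen with earlier results of these data known, and the single fit of all libraries was chosen over fits of 8 libraries knowing that it gives more calls. Genes entered the test if 4 or more libraries had a value of 10 or more. All 10 members are named. From the lists, genes called in the mean contrast are named by size of change, at most 4 in each direction, and genes named as not called are additions made after their values were seen. For PDK4, PCK1, SLC2A1 and SLC2A4 the 5 genes with the highest Pearson correlation are named. Correlations used 100000 two-sided permutations and Benjamini-Hochberg adjustment. The fit was also run on simulated data with known changes, placed only in genes of below-median spread and with independent normal noise. That setting holds no outlying libraries, so it does not show how the fit performs for low or outlying members. Low genes carry an uncertainty of a few reads, which covers counting error only, and a floor of 3 reads was used for lower bounds. A search of promoters for motifs was not run, and no sequence is given, because no sequence of this build was used here.

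Libraries of the same replicate number before and after differentiation deviated together from their group means in all 4 pairs of MC, FC and MFGR (correlations of 0.16 to 0.67), so the number was taken to pair them there, as a sign in the data and not from a label. In FFGR, replicate 2 had -0.40, and replicate 1 correlated best with number 2. The fit with the replicate number as a block still used it in all 4 groups, FFGR included.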

Additional observations from a re-analysis of the deposited data

Results flagged for a closer look

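Within groups of 4 libraries, 25 of the 80 combinations of gene and group held 1 library whose gap to the nearest other exceeded Dixon's limit, and chance gives about 1 in 20 where values are normally distributed. These gaps were taken on the deposited values, on which 5 of the 25 were libraries with 1 or 2 reads beside 3 at 0. On the log2 scale 16 combinations passed, 13 of them the same, so the number cannot be read against that rate. Of the 25, 9 lay in FC replicate 1 or FFGR replicate 1. In FC replicate 1 SLC2A1 was 3722, SLC2A3 78278, PDK1 1690 and PCK1 2.75. In FFGR replicate 1 SLC2A1 was 4796, SLC2A3 73271, PDK1 2174, PDK3 329.1 and PCK1 1.70.

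Other preadipocyte libraries stood apart for single genes, each only against the 3 others of its own group. MFGR replicate 3 had SLC2A1 at 1172 and PDK1 at 326, and MC replicate 3 had PDK4 at 57.1 and SLC2A4 at 2.03. PDK1 was lowest of MC in replicate 4 (287.5), and PDHA1 was lowest of FC in replicate 2 (300.4). Single reads decided SLC2A4 in MFGR replicate 1 (0.695) and PCK1 in MFGR replicate 2 (1.08), where the other 3 libraries were at 0.

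Among differentiated libraries the comparison was again within a group of 4. In MFGRD, replicate 1 was highest for SLC2A4 (61.3) and PDK2 (389.5), and replicate 4 was highest for PDK4 (1775) and lowest for SLC2A1 (250). In FFGRD, replicate 1 was highest for PDK4 (2357) and replicate 2 for SLC2A3 (3545), and replicate 3 was lowest for PDP1 (24.7). In FCD, replicate 1 was highest for PDP1 (201.1).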

How the results depend on the processing

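Averaged over the groups, 6 members were called, and leaving out each library in turn also gave 6 to 6. With array weights the PDK2 change of 0.55 fell under the 1.5-fold limit. SLC2A4 and PCK1 were not tested with a filter of 20 CPM or without the 7 libraries of the smaller branch. Over all members, in the group comparisons of differentiation and their mean, no call reversed. Leaving out a library changed a call in 27 of 1600 values (20 lost, 7 gained), and the other alternatives in 36 of 562 (14 lost, 22 gained). The 1600 values include members that were never called and libraries outside a comparison. All 20 losses fell on SLC2A4, PDK3 or PCK1 in MCD against MC or FFGRD against FFGR. The share of 1600 therefore understates how much these calls depend on single libraries. In MCD against MC the 4 calls became 2 to 5 without single libraries, and 2 with a filter of 20 CPM, in the fit of 8 libraries or without the 7 libraries of the smaller branch. In FCD against FC the 0 calls became 0 to 1 without single libraries, 1 with a pseudocount of 10, quantile normalization, the replicate block, the span slope or without the 7 libraries, and 3 with array weights. In MFGRD against MFGR the 1 call became 1 to 2 without single libraries, 3 with the span slope and 2 with array weights or without FC and FFGR replicate 1. In FFGRD against FFGR the 4 calls became 1 to 5 without single libraries, 2 with a pseudocount of 10 or 20 CPM, and 1 in the fit of 8 libraries, with array weights or without the 7. The 7 transcripts called became 7 to 8 without single libraries and 4 at 20 CPM, where SLC2A4 and PCK1 were not tested. The cause was not tested in the other cases. The replicate block also added PDK2 in MCD against MC and PDHA1 in FFGRD against FFGR (adjusted p = 0.0376, limma), and it lost no call. The PDHA1 call rests on a pairing by number that the correlations did not bear out for FFGR replicate 2. Quantile normalization ended the calls of SLC2A4 in MCD against MC and of PDK3 and PCK1 in FFGRD against FFGR (limma adjusted p of 0.0562, 0.0801 and 0.0538). Same-numbered libraries correlated above 0.1 in 15 of 16 pairs, and 13 of 16 correlated best with their own number. Depth limits SLC2A4 and PCK1, which rest on a few reads.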
